A study of Mus musculus with 27 samples.

Results

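Fibronectin and the integrin subunits that bind it, together with the collagen and laminin binding subunits, were followed in mammary tumor cell lines treated with TGFβ or Wnt3a. The group holds 10 genes, found by their Entrez identifiers among the 24454 genes of the expression table: Fn1, Itga5, Itgav, Itgb1, Itgb3, Itgb5, Itgb6, Itga2, Itga6 and Itgb4. All 10 passed the filter on low values, which kept 13270 genes.

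The cells were derived from tumors of a thoracic mammary gland of MMTV-PyMT mice (FVB/N), in which a viral promoter drives the polyoma middle T oncogene in the mammary epithelium. All lines carry a domain mutant of Bcl9 and Bcl9L (B9/B9L), coactivators of β-catenin: the HD1 domain contacts Pygopus and the HD2 domain contacts β-catenin. The genotypes labeled deltaHD1/fl and deltaHD2/fl (ΔHD1/fl and ΔHD2/fl) keep a floxed wild-type allele. In deltaHD1/- and deltaHD2/- (ΔHD1/- and ΔHD2/-) that allele was recombined by an adenovirus expressing Cre. Each genotype was represented by 2 lines, and ΔHD2/- by 3, giving 9 lines, each grown with no cytokine, with Wnt3a (100 ng/ml, 3 days) or with TGFβ (2 ng/ml, 4 days). The 27 libraries therefore form 12 groups, without a wild-type B9/B9L group, and treatments of a line are samples of the same cells. Per the labels the lines of 1 genotype come from separate mice. The paper describes the cells as isolated from 2 different tumors, although ΔHD2/- has 3 lines. Recombined lines were made by infecting cells that carried a floxed and a mutant allele. Which unrecombined line each recombined line came from is not given in the sources used here.

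Integrins are heterodimers of an α and a β subunit that connect the extracellular matrix to the actin or keratin cytoskeleton. α5β1 is the classical fibronectin receptor, and the αv subunit pairs with β1, β3, β5 or β6 to form receptors for fibronectin, vitronectin and the latent TGFβ complex. α2β1 binds collagen, whereas α6β4 binds laminin-332 and anchors epithelial cells through hemidesmosomes. In mammary epithelium TGFβ is a known inducer of epithelial-mesenchymal transition (EMT), during which fibronectin is produced.

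Libraries held 21.86 to 33.69 M reads assigned to genes, and levels are given as counts per 1000000 of these reads (CPM). The highest count that an observed 0 still allows, 3 reads, corresponded to 0.089 to 0.137 CPM and covers counting error only. Bcl9 was at 32.4 to 104 CPM and Bcl9l at 70.7 to 346 CPM over all libraries with overlapping ranges among the genotypes, and gene totals do not show which allele or domain is transcribed. ΔHD2/- lines 2 and 3 resembled each other (correlation over genes 0.993 to 0.997) more than the 15 other pairs of lines within a group (0.807 to 0.957), and values without each are therefore given where they matter.

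The labeled epithelial cell type was checked against 14 epithelial markers. In 7 of the 9 lines without cytokine, 11 to 14 of these were at 1 CPM or above and summed to 4522 to 20390 CPM. ΔHD1/fl line 2 and ΔHD1/- line 2 went against the label, with 2 and 4 markers at that level and sums of 358.5 and 1318 CPM. Their E-cadherin gene Cdh1 was at 0.522 and 0.237 CPM, and Epcam, another epithelial adhesion molecule, at 0.075 and 0 CPM. Their 12 mesenchymal and fibroblast markers summed to 7239 and 10490 CPM, against 136.8 to 972.8 CPM in the other lines. Of 8 leukocyte and endothelial markers the sum stayed between 2.502 and 25.55 CPM in all libraries, and the pan-leukocyte gene Ptprc was at 0 to 0.046 CPM without cytokine. Whether these marker differences contribute to the integrin levels was not tested. In these bulk libraries fewer cells of a type and less RNA per cell cannot be told apart.

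Upstream sequences are shown for the 3 integrin genes that were called higher with TGFβ and have an entry in the RefSeq promoter table, which held 6 of the 10 members: Itga5, Itgb1 and Itga2. Each run gives the 250 bases before the annotated start in GRCm38.p6, 5′ to 3′ on the strand of the gene, and capitals mark the motifs searched on both strands: CAGAC, the core Smad element, TGANTCA, an AP-1 element, and GGGCGG, a GC box. No marked stretches overlap, and a match in the opposite orientation reads GTCTG or CCGCCC.
Itga5, chr15:103366792-103367041, minus strand: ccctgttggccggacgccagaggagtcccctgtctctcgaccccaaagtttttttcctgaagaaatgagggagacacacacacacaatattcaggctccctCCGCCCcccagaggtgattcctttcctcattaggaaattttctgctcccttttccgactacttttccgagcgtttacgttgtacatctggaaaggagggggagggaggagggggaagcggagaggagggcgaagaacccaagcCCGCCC
Itgb1, chr8:128685404-128685653, plus strand: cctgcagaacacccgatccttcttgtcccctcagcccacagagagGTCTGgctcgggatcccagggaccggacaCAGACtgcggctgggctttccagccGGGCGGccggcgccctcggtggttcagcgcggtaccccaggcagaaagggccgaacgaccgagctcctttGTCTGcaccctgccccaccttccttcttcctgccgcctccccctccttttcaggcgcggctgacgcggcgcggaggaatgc
Itga2, chr13:114932101-114932350, minus strand: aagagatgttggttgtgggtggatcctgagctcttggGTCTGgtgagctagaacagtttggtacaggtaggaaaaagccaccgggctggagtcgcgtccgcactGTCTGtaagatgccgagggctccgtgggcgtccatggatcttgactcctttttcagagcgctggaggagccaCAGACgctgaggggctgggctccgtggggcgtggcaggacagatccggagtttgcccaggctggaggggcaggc
CAGAC occurred 3 times each before Itgb1 and Itga2 and 0 times before Itga5, and 42.2% of 32851 promoter windows of the same length held it at least once. The GC box occurred 2 times before Itga5 and 1 time before Itgb1, against 32.7% of windows with at least 1. TGANTCA, present in 6.7% of windows, was in none of the 3. These matches describe letters in this window and no binding was measured.

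To ask which subunits change with TGFβ alongside fibronectin, the response was first averaged over the 4 genotypes. Fn1, Itga5, Itgb1, Itgb3 and Itga2 rose and Itga6 fell, by limma, where a call needed a Benjamini-Hochberg adjusted p up to 0.05 together with a change of 1 or more on the log2 scale in either direction. Thus 6 of 10 members were called, against 5.42% of all tested genes (719 of 13270, 1.86% higher and 3.56% lower). The median log2 fold change of the members was 0.98, beside -0.16 for all genes. With median-of-ratios scaling the median of all genes moved to -0.02 and the calls split into 318 higher and 316 lower in place of 247 and 472. The same 6 members were called under that scaling, for example Itga5 with a log2 change of 3.09 and Itga6 with -1.95.

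**Figure D1:**
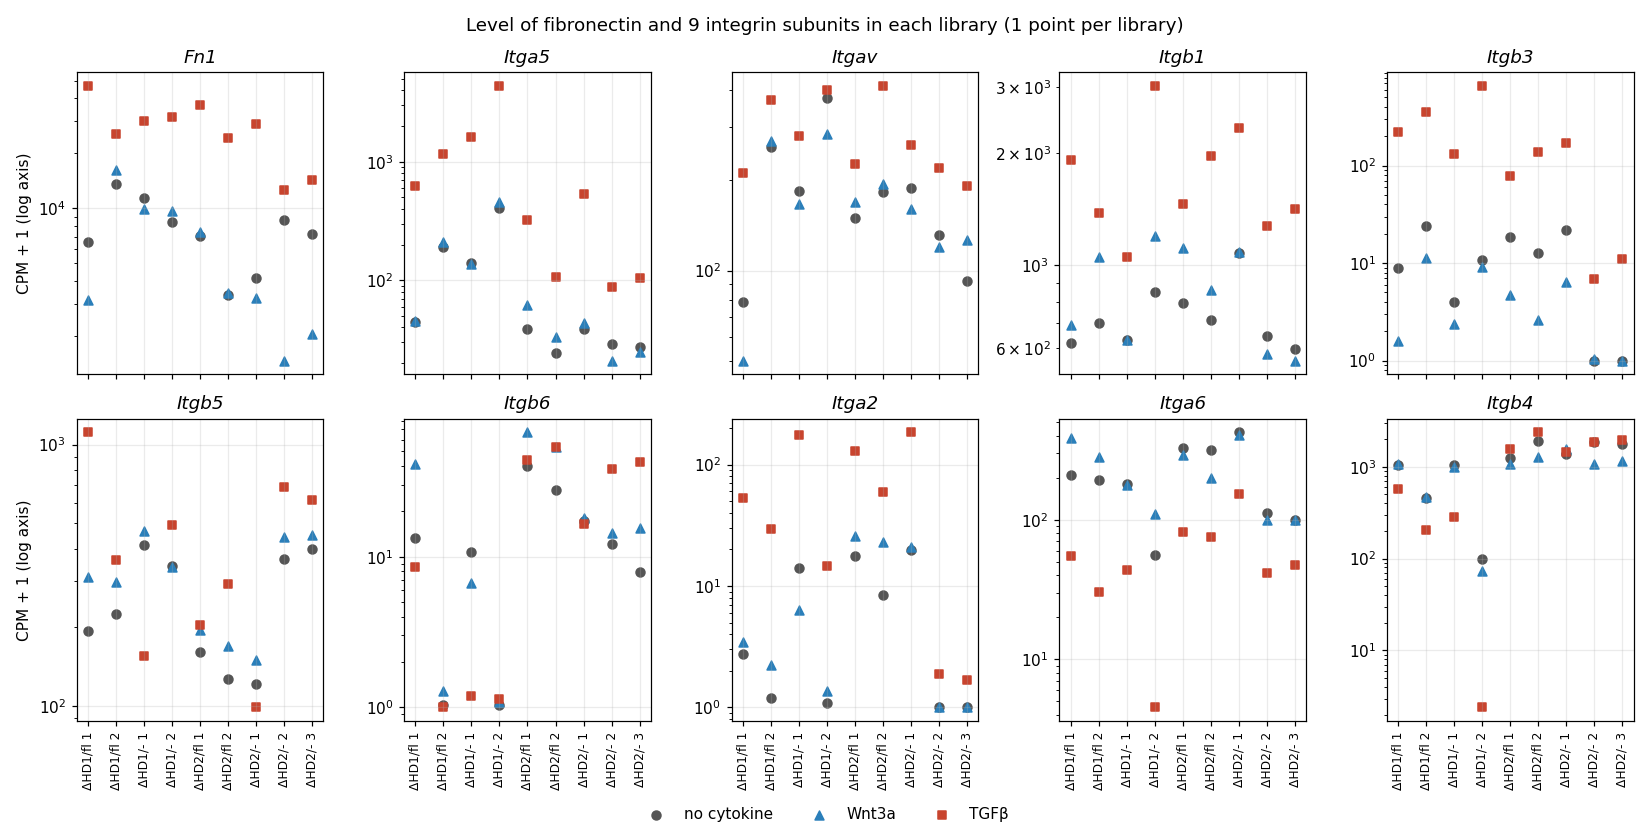
Each panel plots one gene, with the 9 cell lines on the x axis and CPM plus 1 on a log axis; 1 point is 1 library without cytokine (grey circle), with Wnt3a (blue triangle) or with TGFβ (red square). The red squares lie above the grey circles in all 9 lines for Fn1, Itga5, Itgav, Itgb1, Itgb3 and Itga2, and below them in all 9 for Itga6.

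Fn1 encodes fibronectin, a matrix glycoprotein with an RGD site that α5β1 and αv integrins recognize (chr1:71585520-71653200, minus strand, GRCm38). Without cytokine it was at 6503 and 13600 CPM in the ΔHD1/fl lines, 11430 and 8400 in the ΔHD1/- lines, 7067 and 3370 in the ΔHD2/fl lines, and 4149, 8664 and 7273 in the ΔHD2/- lines. With TGFβ, the levels in the same order were 46940 and 25480, 30110 and 31590, 36800 and 24300, and 29080, 12580 and 14210 CPM. The ranges of untreated and treated lines overlapped, although Fn1 was higher in 9 of 9 lines. In ΔHD2/- lines 2 and 3 it was 1.45-fold and 1.95-fold higher, the former the least of all lines, and in ΔHD1/fl line 1 7.22-fold. Fn1 took 0.337% to 1.36% of all assigned reads without cytokine and 1.26% to 4.69% with TGFβ. The mean log2 change was 1.90 ± 0.32 (SE, adjusted p = 0.000773, limma).

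Itga5 encodes α5, the partner of β1 in the fibronectin receptor (chr15:103344286-103366763, minus strand). Its untreated levels were 43.5 and 192 CPM in the ΔHD1/fl lines, 140 and 406 in the ΔHD1/- lines, 38.0 and 23.6 in the ΔHD2/fl lines, and 38.1, 28.2 and 26.2 in the ΔHD2/- lines. TGFβ brought these to 621 and 1171, 1603 and 4389, 321 and 105, and 536, 86.8 and 104 CPM. The 3 lines with the highest untreated level, all ΔHD1, also had the highest level with TGFβ. Its mean log2 change was 2.92 ± 0.46 (adjusted p = 0.000483), with single lines between 1.59 and 3.80.

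Itgb1 encodes β1, the common partner of α5, α2 and many other α chains (chr8:128685654-128733200, plus strand). It was even among untreated lines, from 598 to 1077 CPM with a median of 699, and at 1054 to 3033 CPM with TGFβ (median 1460). Itgb1 was higher in 9 of 9 lines, between 1.68-fold in ΔHD1/- line 1 and 3.59-fold in ΔHD1/- line 2. The mean log2 change was 1.22 ± 0.23 (adjusted p = 0.00162).

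Itgb3 encodes β3, which forms the αvβ3 receptor (chr11:104608000-104670476, plus strand). Untreated lines had 8.00 and 23.2 CPM in ΔHD1/fl, 2.99 and 9.88 in ΔHD1/-, 17.5 and 11.7 in ΔHD2/fl, and 21.0, 0 and 0 CPM in ΔHD2/-. With TGFβ the same lines had 221 and 350, 131 and 660, 76.6 and 137, and 170, 5.81 and 10.0 CPM. ΔHD2/- lines 2 and 3 started from 0 reads and ended lowest, and against a floor of 3 reads per library their rise was at least 43.0-fold and at least 79.7-fold. In the other lines it ranged from 4.37-fold in ΔHD2/fl line 1 to 66.7-fold in ΔHD1/- line 2. The fitted log2 change was 3.89 ± 0.75 (adjusted p = 0.0022).

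Itga2 encodes α2, the collagen-binding partner of β1 (chr13:114833081-114932100, minus strand). Before treatment it was at 1.74 and 0.187 CPM in ΔHD1/fl, 13.1 and 0.089 in ΔHD1/-, 16.6 and 7.44 in ΔHD2/fl, and 18.8, 0 and 0 CPM in ΔHD2/-. After TGFβ these lines had 51.7 and 28.7, 174 and 13.7, 128 and 58.3, and 183, 0.887 and 0.667 CPM. Both lines without Itga2 reads remained below 1 CPM, with rises of at least 6.57-fold and 5.31-fold. ΔHD1/- line 2 went from 3 to 380 reads, a ratio of 154 with a 95% counting interval of 52.2 to 748. The mean log2 change of 3.15 ± 0.99 (adjusted p = 0.0373) was close to the limit. It was lost when any line other than ΔHD2/- line 1 was left out (adjusted p 0.0549 to 0.128) and in the count test of edgeR (0.0925), whereas the fit with cell line as replicate block gave adjusted p = 3.08e-06.

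Itga6 encodes α6, the laminin receptor subunit that pairs with β4 or β1 (chr2:71745616-71858416, plus strand). It was the member that fell in 9 of 9 lines. Levels went from 210 to 54.1 and 193 to 29.5 CPM in the ΔHD1/fl lines, and from 179 to 42.6 and 55.3 to 3.53 CPM in the ΔHD1/- lines. In ΔHD2/fl they went from 325 to 81.2 and 314 to 74.9 CPM, and in ΔHD2/- from 423 to 152, 112 to 40.4 and 98.3 to 46.8 CPM. Untreated and treated ranges overlapped because the lines differed in their starting level. On average Itga6 fell by 2.12 ± 0.45 on the log2 scale (adjusted p = 0.00429), and by 1.83 without ΔHD1/fl line 2 and ΔHD1/- line 2, the pair with few epithelial markers (adjusted p = 0.0256).

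Itgb4 encodes β4, the hemidesmosomal partner of α6 (chr11:115974709-116008412, plus strand). In the ΔHD1 lines it went with TGFβ from 1036 to 569 and 459 to 205 CPM (ΔHD1/fl) and from 1046 to 285 and 96.9 to 1.40 CPM (ΔHD1/-). In the ΔHD2 lines it went from 1247 to 1561 and 1900 to 2365 CPM (ΔHD2/fl) and from 1381 to 1443, 1853 to 1869 and 1778 to 1962 CPM (ΔHD2/-). All 4 ΔHD1 lines were lower and all 5 ΔHD2 lines were higher with TGFβ, by at most 1.25-fold. The difference between both families was not tested. The mean log2 change, -1.06 ± 0.73, was not called (adjusted p = 0.342). With cell line as block it was (adjusted p = 0.00794), so that 7 members were called against 8.92% of all genes (5 higher against 3.02%, 2 lower against 5.9%), as it was without ΔHD1/- line 1 (-1.49, adjusted p = 0.0028). Without ΔHD1/- line 2 it was -0.62 and not called with or without the block, and edgeR gave -0.48 (adjusted p = 0.69). Without the pair of lines with few epithelial markers the value was -0.59.

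Itgav, Itgb5 and Itgb6 did not pass. Itgav encodes αv (chr2:83724397-83806916) and was at 77.3 to 375 CPM untreated and 191 to 412 CPM with TGFβ, higher in 9 of 9 lines by 1.06-fold to 2.72-fold. Its log2 change was 0.74 ± 0.31 (adjusted p = 0.106). Itgb5, encoding the β5 partner of αv (chr16:33829665-33949338), was higher in 7 lines and lower in ΔHD1/- line 1 (412 to 155 CPM) and ΔHD2/- line 1 (120 to 97.8 CPM), with a log2 change of 0.59 ± 0.39 (adjusted p = 0.324). In ΔHD1/fl line 1 it went from 193 to 1113 CPM, the largest change of Itgb5.

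Itgb6 encodes β6, an epithelial αv partner that activates latent TGFβ (chr2:60598292-60722643). It was near absent in the pair of lines with few epithelial markers, at 1 read in ΔHD1/fl line 2 and 1 read in ΔHD1/- line 2, and at 6.87 to 39.0 CPM in the other 7 untreated lines. With TGFβ it was lower in ΔHD1/- line 1 (9.79 to 0.199 CPM) and higher in ΔHD2/- line 2 (11.2 to 37.1 CPM) and line 3 (6.87 to 41.8 CPM). Its mean log2 change was 0.01 ± 0.69 (adjusted p = 0.996), and the sign changed with the pseudocount, with edgeR and with the line left out.

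**Figure D2:**
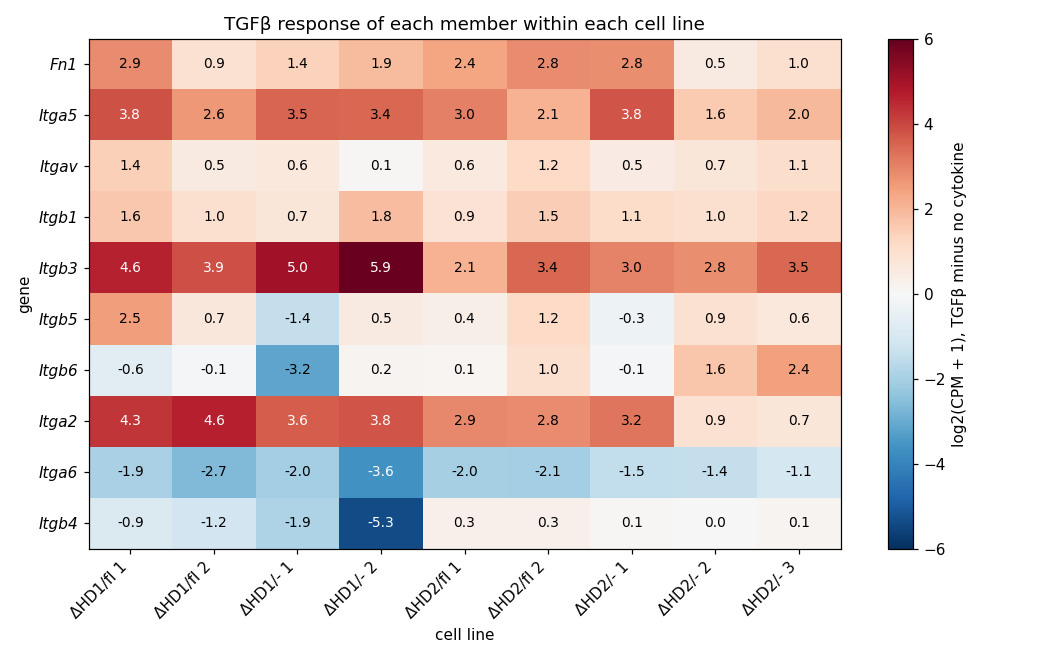
The heat map gives the difference in log2(CPM + 1) between TGFβ and no cytokine for each gene (y axis) and cell line (x axis), red for higher and blue for lower with TGFβ. Itga5, Itgb3 and Itga2 are red and Itga6 blue in all 9 columns, while Itgb4 is blue in the 4 ΔHD1 columns only.

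Within single lines, the set of members that moved with Fn1 by at least 1 on the log2(CPM + 1) scale was described without a test, as each line has 1 library per treatment. Itga5 and Itgb3 rose by that much and Itga6 fell by that much in all 9 lines. ΔHD1/fl line 1 and ΔHD2/fl line 2 had 7 members up, adding Fn1, Itgav, Itgb1, Itgb5 and Itga2, and 1 down. In ΔHD1/- line 1, 4 members were up and 4 down, the latter being Itgb5, Itgb6, Itga6 and Itgb4. In ΔHD1/fl line 2 and in ΔHD2/- lines 2 and 3 the Fn1 change was below 1 (0.91, 0.54 and 0.97), although Itga5 rose by 2.61, 1.59 and 1.95 in the same lines. Fn1 and Itga5 thus did not order the lines alike: the largest Fn1 changes were in ΔHD1/fl line 1 and ΔHD2/fl line 2 (both 2.85), and Itga5 changed by 3.80 and 2.11 there.

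Because libraries of a line share their cells, the fit was repeated with cell line as replicate block for each genotype. Without the block, limma called 0 members in each of the 4 genotypes, where 0.211%, 1.43%, 0.286% and 0.806% of all genes were called in ΔHD1/fl, ΔHD1/-, ΔHD2/fl and ΔHD2/-, and edgeR also called 0 members in each. At an unadjusted p below 0.05 there were 6, 6, 4 and 4 members, beside 1260, 1777, 1156 and 1437 of all 13270 genes (limma). With the block, 5, 6, 6 and 5 members were called, against 5.42%, 9.33%, 5.24% and 6.03% of all genes. Of all genes, 2.34%, 2.49%, 1.8% and 2.25% were called higher, and 3.07%, 6.84%, 3.44% and 3.78% lower. Itga5, Itgb1, Itgb3 and Itga2 were called higher and Itga6 lower in each genotype. In ΔHD2/- the Itga2 and Itga6 calls were each made in 1 of 14 alternatives, the blocked fit with all lines. Itga2 reached only 0.887 and 0.667 CPM with TGFβ in ΔHD2/- lines 2 and 3. To these ΔHD2/fl added Fn1 (2.61 ± 0.62, adjusted p = 0.0219) and ΔHD1/- added Itgb4, which fell by 3.61 ± 0.58 (adjusted p = 0.0015). That Itgb4 change was -5.35 without ΔHD1/- line 1, -1.87 without ΔHD1/- line 2 and -1.79 by edgeR (adjusted p = 0.726). The blocked Itga5 changes were 3.20 ± 0.44, 3.47 ± 0.44, 2.58 ± 0.44 and 2.44 ± 0.36 in the same order. With 1 line left out, the genotypes of 2 lines held 1 line, and the ΔHD2/fl calls were lost without either line. The members called in ΔHD1/- also depended on the line kept: line 1 alone changed by 0.74 for Itgb1 and -3.17 for Itgb6. In ΔHD2/-, where 2 lines remained, the blocked fit called 2 to 3 members. Over all alternatives 1 to 882 genes were called in ΔHD2/-.

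**Figure D3:**
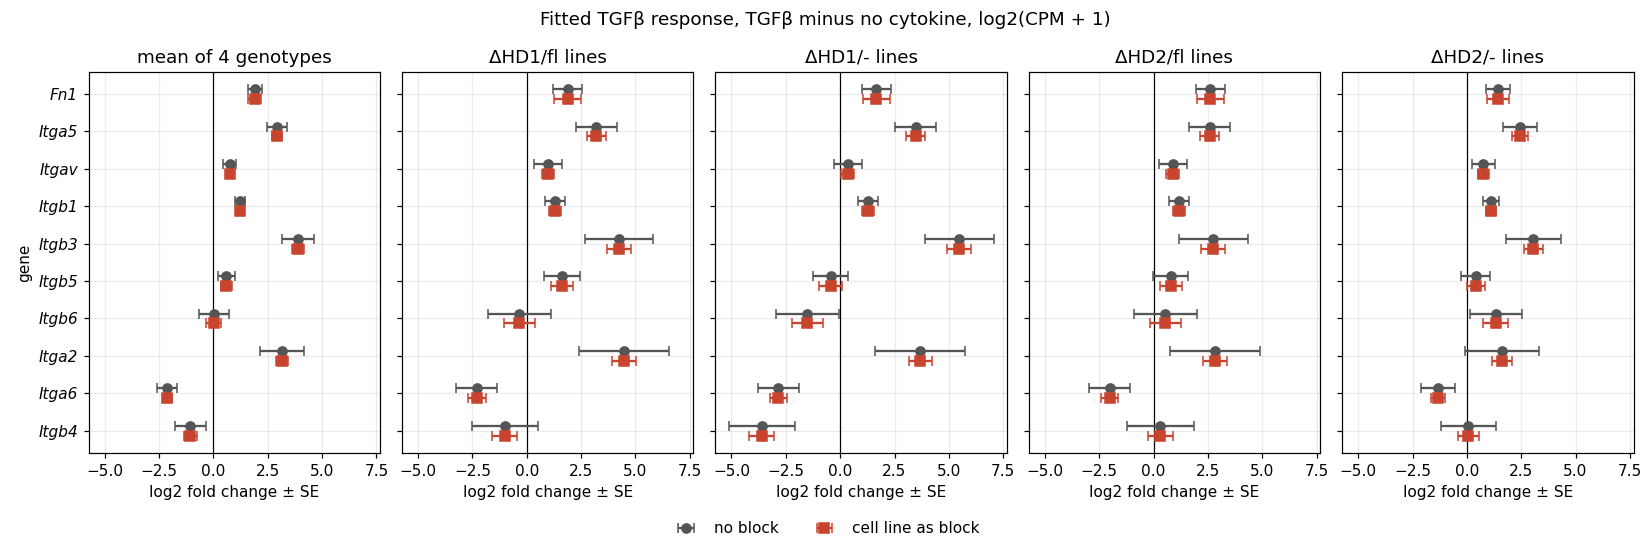
Fitted log2 fold change ± SE (x axis) of each gene (y axis) for TGFβ against no cytokine, as the mean of the 4 genotypes and in each genotype, without a block (grey circles) and with cell line as block (red squares). The estimates coincide and the SE is smaller with the block, for example 0.21 against 0.46 for Itga5 in the mean response.

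Levels of different subunits were compared per kb of annotated exon. Untreated, the median over lines was 622 CPM per kb for Fn1, 178 for Itgb4, 171 for Itgb1, 62.8 for Itgb5, 21.4 for Itga6, 16.9 for Itgav, 7.73 for Itga5, 1.68 for Itgb3, 1.58 for Itgb6 and 0.244 for Itga2. With TGFβ, Itgb1 was at 358, Itgb4 at 206, Itga5 at 109 and Itga6 at 5.18 CPM per kb. The order of α5 and α6 transcripts was turned around in 6 of 9 lines. The per kb ratio of Itga5 to Itga6 was 0.137 to 0.488 in the 5 ΔHD2 lines and ΔHD1/fl line 1 before treatment, and 2.56 to 21.0 after it. In ΔHD1/fl line 2, ΔHD1/- line 1 and ΔHD1/- line 2 the ratio was already above 1 (1.82, 1.43 and 13.4) and went to 72.5, 68.9 and 2276. The Itgb4 to Itgb1 ratio was 0.0667 to 1.73 untreated and 0.000269 to 0.853 with TGFβ, lower in 9 of 9 lines.

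**Figure D4:**
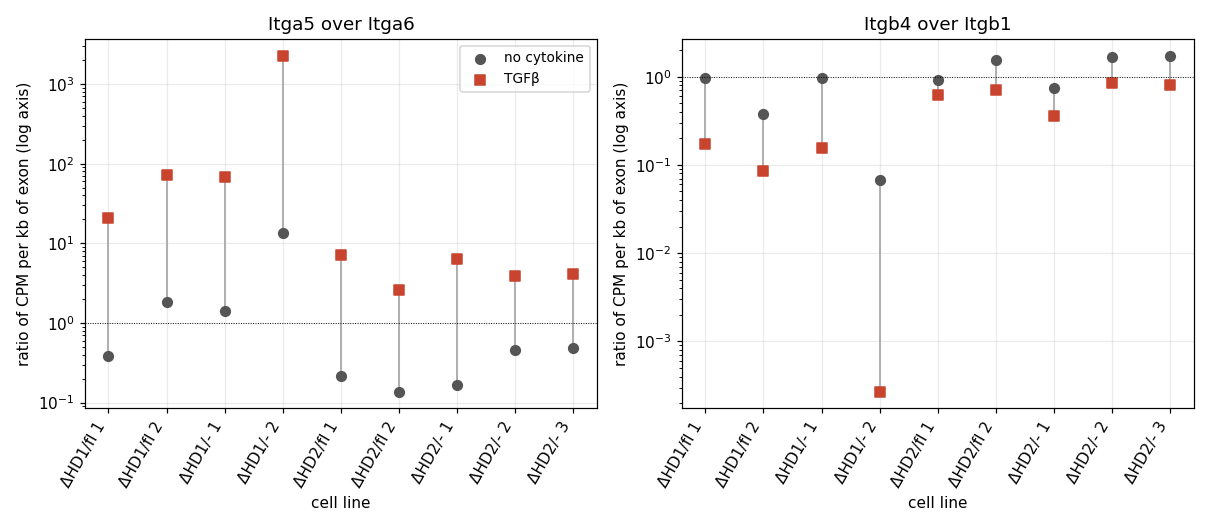
Ratio of CPM per kb of exon on a log axis for Itga5 over Itga6 (left) and Itgb4 over Itgb1 (right) in each cell line (x axis), without cytokine (grey circles) and with TGFβ (red squares), joined by a line; 1 point is 1 library. All red squares on the left lie above 1, and all red squares on the right lie below 1.

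Recombined and unrecombined lines were next compared without treatment. Without cytokine, 0 members were called for ΔHD1/- against ΔHD1/fl by limma (0.0678% of genes called) and 0 for ΔHD2/- against ΔHD2/fl (0.55%). There were also 0 members at an unadjusted p below 0.05, and 0 by edgeR, in both. For Fn1, the groups in order were ΔHD1/fl with 10050 ± 5018 CPM (SD, n = 2), ΔHD1/- with 9914 ± 2142 (n = 2), ΔHD2/- with 6696 ± 2313 (n = 3) and ΔHD2/fl with 5219 ± 2614 (n = 2), and no neighbors in this order differed beyond their SD. Itga5 was at 273 ± 188 CPM in ΔHD1/- and 118 ± 105 in ΔHD1/fl, against 30.9 ± 6.38 in ΔHD2/- and 30.8 ± 10.2 in ΔHD2/fl. Its neighbors in this order did not differ beyond their SD either. Single lines did not overlap between the families, as the lowest ΔHD1 line (43.5 CPM) lay above the highest ΔHD2 line (38.1 CPM). This difference between families was not tested. Groups next to each other were apart beyond their SD for Itgb6, at 32.9 ± 8.57 CPM in ΔHD2/fl (n = 2) and 11.5 ± 4.76 in ΔHD2/- (n = 3), and for Itgb5, at 208 ± 21.7 in ΔHD1/fl and 142 ± 23.9 in ΔHD2/fl (n = 2 each). In the fit the Itgb6 difference between ΔHD2/- and ΔHD2/fl was -1.49 ± 1.32 (adjusted p = 0.799), and Itgb5 was not tested between ΔHD1/fl and ΔHD2/fl. For ΔHD1/- against ΔHD1/fl the Itga5 log2 difference was 1.37 ± 0.96 (adjusted p = 1).

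Some lines stood apart in the baseline of several members. Untreated Itgb4 was at 96.9 CPM in ΔHD1/- line 2, at 459 to 1046 CPM in the other ΔHD1 lines and at 1247 to 1900 CPM in the ΔHD2 lines. This difference between families was not tested. The Itgb4 log2 difference between ΔHD1/- and ΔHD1/fl, -1.11 ± 1.52, became -2.82 without ΔHD1/- line 1 and 0.60 without ΔHD1/- line 2. Itgb3 had 0 reads in ΔHD2/- lines 2 and 3 and its difference between ΔHD2/- and ΔHD2/fl, -2.45 ± 1.43 (adjusted p = 0.671), became -3.94 without ΔHD2/- line 1 (adjusted p = 0.0194). That fit kept only ΔHD2/- lines 2 and 3, which correlated at 0.993 to 0.997 over genes, and counted them as separate replicates. Itga2 also had 0 reads in ΔHD2/- lines 2 and 3, and it had only 5 reads in ΔHD1/fl line 2 and 3 reads in ΔHD1/- line 2. In ΔHD2/- lines 2 and 3 the 12 mesenchymal and fibroblast markers were at their lowest untreated sums, 154.5 and 136.8 CPM, and their part in the result was not tested. Conversely, the pair of lines with few epithelial markers had the highest untreated Itga5 and Itgav and the lowest Itgb4.

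The TGFβ response of the recombined lines was then compared with that of the unrecombined lines. 0 members were called by limma in either family (0.00754% of genes for ΔHD1 and 0.0301% for ΔHD2), 0 had an unadjusted p below 0.05 and edgeR called 0. The ΔHD1/- response of Itgb4 minus that of ΔHD1/fl was -2.60 ± 2.16 and that of Itgb5 was -2.05 ± 1.16, with adjusted p = 1 for each. With the block 0.0226% and 0.098% of genes were called and 0 members, and the Itgb4 difference was called only when ΔHD1/- line 1 was left out (-4.33, adjusted p = 0.000787). It was -0.86 without ΔHD1/- line 2 and -0.99 by edgeR, neither called. The Itgb5 difference lay between -3.01 and -1.08 with 1 line left out, being -1.13 without ΔHD1/fl line 1 and -1.08 without ΔHD1/- line 1. For Fn1, the ΔHD2/- response minus the ΔHD2/fl response was -1.18 ± 0.86 (adjusted p = 1), and it was -1.86 without ΔHD2/- line 1 and -0.73 without ΔHD2/- line 2.

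Wnt3a was the second cytokine. Untreated libraries are labeled 4 days and Wnt3a libraries 3 days, so the cytokine and this difference in time cannot be told apart. 0 members were called by limma in the mean Wnt3a response (0.0226% of genes), 0 had an unadjusted p below 0.05 and edgeR called 0. Itgb3 moved the most, with a log2 difference of -1.25 ± 0.75 (adjusted p = 1.00), and was lower in 7 of 9 lines. In ΔHD1/fl line 1 it went from 8.00 to 0.602 CPM and in ΔHD2/fl line 2 from 11.7 to 1.63 CPM, whereas ΔHD2/- line 3 was at 0 reads in both. The blocked adjusted p was 0.0513, and 0.0145 without ΔHD1/fl line 2. Fn1 was lower with Wnt3a in ΔHD1/fl line 1 (6503 to 3131 CPM) and in ΔHD2/- lines 2 and 3 (8664 to 1465 and 7273 to 2049 CPM) and differed by at most 0.37 on the log2 scale in the other 6 lines, with a mean log2 difference of -0.49 ± 0.32. Both cytokine comparisons use the same untreated libraries.

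Other genes of the adhesion system were read from 4 lists. Of 17 further integrin subunits 10 could be tested, and 2 were called lower and 0 higher with TGFβ (3.56% and 1.86% of all genes), 1 lower and 0 higher by edgeR: Itga10, a collagen receptor subunit, fell by 1.21 ± 0.24 on the log2 scale (adjusted p = 0.00223) and Itgb8, an αv partner, by 1.31 ± 0.43 (adjusted p = 0.0441). Of all 13270 genes, edgeR called 356 higher and 499 lower. The median of the 10 was -0.55. With the block (5.9% of all genes lower) 4 were lower, adding Itga8 and Itgb7. Itga3, the laminin receptor subunit that pairs with β1, was abundant in all lines (311 to 1529 CPM untreated, 276 to 2093 CPM with TGFβ) and was not called (0.51 ± 0.46, adjusted p = 0.478).

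Among 23 adaptors and kinases that act on the cytoplasmic side of integrins, 2 rose and 1 fell (1.86% and 3.56% of all genes), with a list median of 0.36. Tns1, the actin-linking adaptor tensin, rose from 0.126 to 432 CPM over untreated lines to 40.4 to 576 CPM, by 4.38 ± 0.83 on the log2 scale (adjusted p = 0.00202). Zyx, encoding the focal adhesion protein zyxin, was higher by 1.19 ± 0.24 (adjusted p = 0.00264), and the tensin family gene Tns2 fell by 1.82 ± 0.31 (adjusted p = 0.000889). The tensin genes therefore moved in both directions. By edgeR 3 genes of this list were higher and 1 lower, beside 356 higher and 499 lower of all 13270 genes. Fermt1, the kindlin of epithelial cells, was higher in 9 of 9 lines but was called only with the block (2.61 ± 0.11, adjusted p = 2.69e-08). The central linkers Tln1, Vcl, Ilk and Ptk2 changed by less than the limit of 1, at 0.48, 0.26, 0.36 and 0.37.

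None of 7 hemidesmosome and laminin-332 genes was called by limma or edgeR, against 5.42% of all genes by limma. At an unadjusted p below 0.05 there was 1, Cd151, a tetraspanin partner of α6 and α3, beside 4156 of all 13270 genes. Of all genes, edgeR called 356 higher and 499 lower. The list median was 0.38. With the block the laminin-332 chain gene Lama3 was called higher (1.68 ± 0.23, adjusted p = 0.000126), against 3.02% of all genes higher. Col17a1, a hemidesmosomal collagen, had a log2 difference of -0.71 ± 0.94.

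Of 23 other integrin ligands 19 were tested, and 3 rose and 2 fell (1.86% and 3.56% of all genes), with a median of -0.05. By edgeR 3 were higher and 1 lower, beside 356 higher and 499 lower of all 13270 genes. Tnc, encoding tenascin-C, rose in 9 of 9 lines, from a median of 30.5 CPM to 7794 CPM (6.93 ± 1.49, adjusted p = 0.00461). Lamb1, a laminin β chain, rose by 2.19 ± 0.65 (adjusted p = 0.0297) and Edil3, an RGD protein that binds αv integrins, by 1.60 ± 0.51 (adjusted p = 0.042). Spp1, encoding the RGD ligand osteopontin, fell by 1.54 ± 0.26 (adjusted p = 0.000824) and Lama4, a laminin α chain, by 1.85 ± 0.53 (adjusted p = 0.025). Fibronectin was therefore accompanied by some ligands and not by others, and between untreated ΔHD2/- and ΔHD2/fl lines 1 ligand gene was called, Nid1 (nidogen), with a log2 difference of -2.63 ± 0.41 (adjusted p = 0.00256), where 0.55% of all genes were called.

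Cell type markers were read in the same way. 0 of 14 epithelial and 0 of 12 mesenchymal and fibroblast markers were called in the mean TGFβ response by limma, with 3 and 2 at an unadjusted p below 0.05 and 0 and 1 by edgeR, and medians of -0.86 and 0.71. Of all genes 5.42% were called by limma in this response, and 4156 of 13270 had an unadjusted p below 0.05. EdgeR called 356 genes higher and 499 lower. With the block, 7 epithelial markers were lower, 1 was higher and 4 mesenchymal markers were higher, against 5.9% of all genes lower and 3.02% higher. Of the leukocyte and endothelial markers 3 could be tested and Cdh5, an endothelial cadherin, was called higher at 0 to 0.407 CPM untreated, against 1.86% of all genes higher. Cdh5 reached 1 CPM only in TGFβ libraries. It passed the filter only through the group where it was high, so its call is no independent result.

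Genes with the most similar pattern over the 27 libraries were found by Pearson correlation of log2(CPM + 1) among genes with a mean of at least 10 CPM. These libraries share cell lines and treatments, so the correlations describe and are not tested. For Fn1 the nearest genes included Katnal1 (0.844), Ust (0.833), Ccn4 (0.832) and Adarb1 (0.831). Apbb2 (0.94), Glipr2 (0.925), Ccn4 (0.905), Sdccag8 (0.903) and Col5a3 (0.898) were nearest to Itga5. For Itgb4 they were Lpar2 (0.91), Ccdc57 (0.908), 2900026A02Rik (0.908), Crip2 (0.894) and Recql5 (0.887). Ccn4 was among the nearest genes of both Fn1 and Itga5.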

How the data were processed

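Stranded libraries of mRNA were sequenced, STAR kept unique hits to mm10, and QuasR counted reads by their start in RefSeq exons. The values deposited by the authors are CPM, relative to all reads assigned to genes in a library. Every value was a whole multiple of 1 read (100% within 0.01 reads), so reads could be recovered for edgeR. Whether counting used the strand is not given in the sources used here: genes on the opposite strand overlap Fn1, Itgav, Itga6 and Itgb4, and same-strand genes overlap Itga5 and Itga6.

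After a filter requiring 1 CPM in 2 or more libraries, 13270 genes were tested with limma 3.58.1 (R 4.3.3) on log2(CPM + 1), which understates changes of low genes. All 27 libraries entered 1 fit with 12 group means. P-values were adjusted by Benjamini-Hochberg over all genes tested, and the limits were 0.05 and a log2 change of 1. The fit was tested on simulated data. Libraries of a line come from the same cells, and their deviations from group means correlated at 0.509 to 0.94 over 27 pairs. Cell line was therefore also fitted as replicate block. Without the block, p-values measure the spread between lines. With it, those of the treatment comparisons measure how much the response differs among lines of a genotype.

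Members and gene lists were chosen with earlier results of these data known. Named were all members, up to 3 called genes per direction and list, and the 5 genes most correlated with Fn1, Itga5 and Itgb4. Tln1, Vcl, Ilk, Ptk2, Itga3, Col17a1, Nid1, Cdh5, Cd151 and the genes called with the block were added after their values were seen. Some genes that these rules name are not reported here. Positions are from a GRCm38 annotation (GENCODE) and promoters from RefSeq (GRCm38.p6). Alternatives were edgeR 4.0.16 on the recovered reads, median-of-ratios scaling, a pseudocount of 0.1, testing all genes unfiltered, compared groups only, no fold change limit, averaging ΔHD2/- lines 2 and 3, and leaving out each line.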

Additional observations from a re-analysis of the deposited data

Results flagged for a closer look

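The response of Itgb4 to TGFβ stood out in 1 line. In ΔHD1/- line 2 the log2 difference was -5.35, the next lowest line was at -1.87, and the gap took 0.613 of the range over 9 lines. Over the 20 sets of 9 responses examined, chance alone marks about 1 in 20. This line also had 4 of 14 epithelial markers at 1 CPM or above without cytokine, and its Itgb4 level with TGFβ was 1.40 CPM.

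For Itgb4 the sign of the TGFβ difference also separated the ΔHD1 lines from the ΔHD2 lines. The mean log2 difference was -2.31 over 4 ΔHD1 lines, all lower, and 0.17 over 5 ΔHD2 lines, all higher, a difference of -2.48. Without ΔHD1/- line 2 the ΔHD1 mean was -1.30 and the difference -1.47. The ΔHD2 changes were not called, with or without the block, nor was that of ΔHD1/fl. The difference between families was not tested.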

How the results depend on the processing

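In the mean TGFβ response 5 to 7 members were called under all alternatives, including each line left out and, chosen after seeing the data, ΔHD1/fl and ΔHD1/- lines 2 left out. Itga2 was lost in 14 of 28 alternatives and Itgb4 gained in 10. Itgb6 changed sign: -0.17 with a pseudocount of 0.1, -0.71 with edgeR, -0.0857 with ΔHD2/- lines 2 and 3 averaged, -0.48 without both ΔHD1 lines 2 (with and without the block), and -0.41 to 0.42 with 1 line left out (with and without the block -0.0675 without ΔHD1/fl line 2, -0.0952 without ΔHD2/fl line 2, and -0.0315 and -0.13 without ΔHD2/- lines 2 and 3).

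With the replicate block 5, 6, 6 and 5 members were called in ΔHD1/fl, ΔHD1/-, ΔHD2/fl and ΔHD2/- in place of 0, and it changed no member's call in the interaction or Wnt3a comparisons. With 1 line left out, with or without the block (with it, chosen after seeing the data), the counts were 0 to 7 (4 under the block without ΔHD1/fl line 1), 0 to 6, 0 to 0 and 0 to 3. A genotype then holds 1 line, assumed to vary like the others. The Wnt3a count went from 0 to 1 (Itgb3) without both ΔHD1 lines 2 under the block and was 0 to 1 with 1 line left out, as were both baselines and the ΔHD1 interaction. The ΔHD1/- response of Itgb5 was -0.44, 0.0027 with edgeR and -1.41 to 0.52 with 1 line left out; that of Itgb6 was -1.51, -4.59 with edgeR and -3.17 to 0.15 with 1 line left out. The ΔHD1 baseline of Itgb4 was -2.82 to 0.60. The cause was not tested where no cause is named. Lines of the same number in fl and recombined genotypes correlated at 0.117 to 0.472 (ΔHD1, 6 pairs) and 0.087 to 0.19 (ΔHD2, 6 pairs) and were not paired; a block of that number changed no baseline call of a member. Genes called in all were 719 for the mean TGFβ response (455 to 2234 over the alternatives, 1184 with the block), 28 in ΔHD1/fl (0 to 1482, block 719), 190 in ΔHD1/- (0 to 1323, block 1238), 38 in ΔHD2/fl (0 to 695, block 695), 107 in ΔHD2/- (1 to 882, block 800), 3 for Wnt3a (1 to 217, block 32), 9 and 73 for the baselines (0 to 225 and 0 to 749), and 1 and 4 for the interactions (0 to 290 and 0 to 243). Depth limits members near 0 CPM, chiefly Itgb6, Itga2 and Itgb3, in single lines.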
